A study of Mus musculus with 8 samples.

Results

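The comparison described here is the difference between 2 responses to lipopolysaccharide (LPS): that of the line RAW 264.7 (RAW) and that of bone marrow-derived macrophages (BMDM). It uses 6 of the 8 libraries of the series and 12461 genes tested of 43346 in the table. Polyadenylated RNA of mouse cells was sequenced. BMDM, primary macrophages that were grown from bone marrow in medium conditioned by L929 cells, had 2 libraries unstimulated (0 h) and 2 after 3 h with LPS. RAW, a macrophage-like tumour line kept in DMEM with 10% serum, had 1 library unstimulated and 1 after 3 h with LPS. RAW is a transformed line that grows without that conditioned medium, so cell type and culture cannot be told apart. No knockout or transgene is named for either cell type. Whether the paired BMDM libraries come from separate cultures is not stated. A p-value here thus measures the spread between libraries, which may be technical.

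LPS, a glycolipid of the outer membrane of Gram-negative bacteria, is bound by CD14 and by the receptor TLR4 with its partner MD-2. From the plasma membrane TLR4 signals through the adaptor MyD88 to NF-kB and MAP kinases, which switch on cytokine and chemokine genes within the first hours. From endosomes it signals through the adaptor TRIF to IRF3 and interferon beta, and the secreted interferon then acts through its receptor on a large set of interferon-stimulated genes.

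The response of a gene is its level after LPS over its level at rest, as a log2 value, and the response difference is the RAW response minus the BMDM response. A negative difference means that LPS raised the gene less, or lowered it more, in RAW. Levels are CPM, read counts scaled to library size by TMM, and they compare libraries, not genes of unequal length. In RNA of whole cultures, fewer responding cells and less RNA per cell cannot be told apart. Totals were 3116434 and 4078496 counts in the RAW libraries and 7977638 to 19307312 in BMDM. A count of 0 therefore allows a level of up to 0.963 CPM in RAW at rest and 0.736 CPM in RAW after LPS, and up to 0.155 to 0.376 CPM in BMDM. Folds in RAW alone set 1 library against 1, have no test, and are given with an exact 95% interval that covers counting error only. Calls come from edgeR's quasi-likelihood test with Benjamini-Hochberg adjustment over all tested genes, which takes the single RAW libraries to vary like the BMDM pairs (fitted coefficient of variation 2.27%).

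All 10 macrophage markers were counted in RAW, and their summed level lay between 15063 and 19607 CPM in the 6 libraries. Most of that sum was Lyz2, at 8657 to 12514 CPM, so it does not show that the markers were alike. At rest Adgre1, Cd68, Itgam, Mertk and Spi1 were lower in RAW than in both BMDM libraries, and the other markers were higher. Mertk, for example, was at 105 and 109 CPM in BMDM at rest and at 21.5 CPM in RAW. Neutrophil markers summed to 47.6 to 80.7 CPM in BMDM and to 4.45 and 4.49 CPM in RAW, where 4 of 8, Cxcr2, Elane, Ly6g and Mpo, were at 0. B cell markers summed to 40.2 to 56.7 CPM in BMDM and to 1.57 and 0 CPM in RAW, where 7 of 8 were at 0. Osteoclast markers summed to 8.67 to 42.5 CPM in BMDM and to 189.9 and 208 CPM in RAW, with Calcr and Oscar at 0 in RAW. Most of the RAW sum was Ctsk, at 153 and 153 CPM, and Dcstamp was also higher in RAW in both states. Acp5 was higher in RAW at rest but lower after LPS, at 12.2 CPM against 28.4 and 35.8 CPM in BMDM. Mmp9 was lower in RAW at rest and higher after LPS. The 6 mast cell markers were at 0 in these 6 libraries, and epithelial and erythroid markers summed to at most 0.302 CPM. The part of these other cells in the response differences was not tested.

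The promoters of 6 genes, 3 of which stand for the interferon-stimulated genes and 3 for genes that NF-kB is known to drive, are shown first because the results below are given for these groups. Each is the 250 bases before the RefSeq start on the gene's own strand (GRCm38.p6, the assembly that mm10 also holds), 5′ to 3′. Capitals mark the core of the interferon-stimulated response element (ISRE), which is GAAA, any 2 bases and GAAA on either strand, and matches to the NF-kB consensus. Matches may overlap.

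Isg15, chr4:156200819-156201068, minus strand: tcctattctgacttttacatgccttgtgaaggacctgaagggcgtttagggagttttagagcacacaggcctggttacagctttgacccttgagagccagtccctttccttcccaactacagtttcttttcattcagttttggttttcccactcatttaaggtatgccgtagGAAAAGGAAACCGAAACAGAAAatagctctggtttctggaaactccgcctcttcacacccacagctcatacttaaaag
Ifit1, chr19:34640639-34640888, plus strand: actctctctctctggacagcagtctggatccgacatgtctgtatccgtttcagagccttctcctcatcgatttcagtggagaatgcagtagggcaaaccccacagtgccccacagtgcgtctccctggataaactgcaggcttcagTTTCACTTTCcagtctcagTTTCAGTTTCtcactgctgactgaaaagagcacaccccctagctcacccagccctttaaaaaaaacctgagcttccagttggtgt
Rsad2, chr12:26456453-26456702, minus strand: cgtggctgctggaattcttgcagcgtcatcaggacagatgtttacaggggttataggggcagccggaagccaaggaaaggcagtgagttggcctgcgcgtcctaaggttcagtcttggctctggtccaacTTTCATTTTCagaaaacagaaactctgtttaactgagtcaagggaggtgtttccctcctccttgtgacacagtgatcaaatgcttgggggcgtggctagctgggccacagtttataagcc
Cxcl10, chr5:92348890-92349139, minus strand: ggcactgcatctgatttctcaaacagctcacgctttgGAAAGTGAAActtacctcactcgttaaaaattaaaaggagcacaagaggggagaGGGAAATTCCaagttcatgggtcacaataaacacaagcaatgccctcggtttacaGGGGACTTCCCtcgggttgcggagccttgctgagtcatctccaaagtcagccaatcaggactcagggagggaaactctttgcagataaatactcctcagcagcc
Cxcl2, chr5:90903649-90903898, plus strand: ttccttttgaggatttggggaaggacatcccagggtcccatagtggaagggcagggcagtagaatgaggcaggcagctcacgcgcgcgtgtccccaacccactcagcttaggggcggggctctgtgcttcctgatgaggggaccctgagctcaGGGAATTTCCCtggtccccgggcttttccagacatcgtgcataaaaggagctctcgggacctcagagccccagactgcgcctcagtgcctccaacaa
Nfkbia, chr12:55492648-55492897, minus strand: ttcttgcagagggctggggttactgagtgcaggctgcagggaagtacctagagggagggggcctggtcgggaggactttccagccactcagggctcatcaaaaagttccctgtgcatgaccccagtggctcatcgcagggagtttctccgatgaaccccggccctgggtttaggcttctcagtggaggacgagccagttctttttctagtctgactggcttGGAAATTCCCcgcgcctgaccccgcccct

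The Isg15 promoter held 3 overlapping ISRE matches, that of Ifit1 held 2 and that of Rsad2 held 1. Cxcl10 held 1 ISRE match and 2 stretches that match the NF-kB consensus. Cxcl2 and Nfkbia held the NF-kB consensus and no ISRE core in this window.

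Among differences of more than 2-fold, most were responses that were smaller in RAW, and among the widest were antiviral genes and chemokines that interferon induces. Of the 12461 genes tested, the response was lower in RAW for 1586 (12.7%) and higher for 1246 (10.0%). Past the test against a 2-fold difference it was lower for 367 (2.95%) and higher for 111 (0.891%). With library sizes in place of TMM every difference moves up by 0.27 on the log2 scale, and the split becomes 987 lower and 3052 higher. With a coefficient of variation of 20% set for all libraries, in place of the fitted one, 293 genes were lower and 77 higher. For 1807 genes the 2 RAW libraries held under 10 counts in sum, 516 of them none, so their RAW response is poorly measured at this depth. The counts above include 46 calls among them, which are not described further. The counts below are over the 10494 genes with at least 10 counts in RAW and in BMDM, of which 14.8% were lower and 11.7% higher, 3.41% and 1.06% by more than 2-fold.

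**Figure D1:**
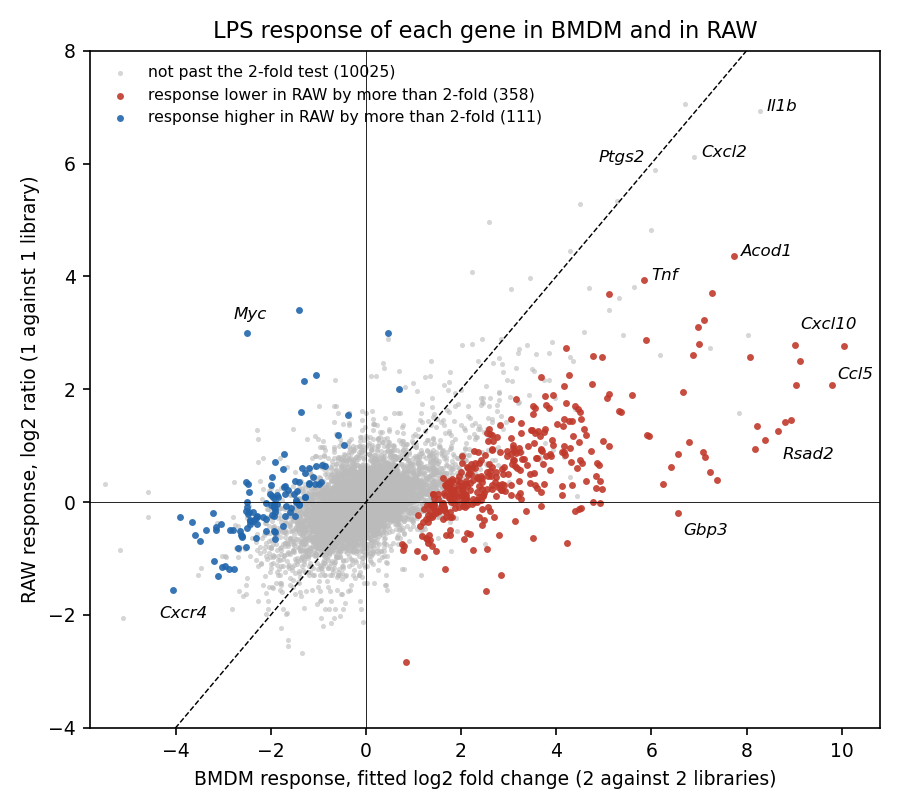
Fitted BMDM response (x axis, log2) against the RAW log2 ratio (y axis) for each of the 10494 genes with at least 10 counts in both cell types. Red points are the 358 genes whose response was lower in RAW by more than 2-fold, blue points the 111 whose response was higher, and the dashed line is equal response. Red points lie far below the line on the right, and Il1b, Cxcl2 and Ptgs2 lie near it.

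Genes were also grouped by the size of their BMDM response. The 110 genes with a BMDM response of at least 4 on the log2 scale had a median of 4.97 there and of 1.45 in RAW, and the difference was called lower for 94 of them. Between 2 and 4, 290 genes had medians of 2.62 in BMDM and 0.77 in RAW, and 242 were lower. At the other end, 131 genes with a BMDM response below −2 had a median of −2.44 in BMDM and −0.55 in RAW, and the difference was higher for 92. At both ends the RAW median lay nearer to 0. The gap at one size of BMDM response differed by group. At 4 or more, 31 interferon-stimulated genes had medians of 5.91 in BMDM and 0.99 in RAW, and 15 of them were at least 2-fold up in RAW. The 20 genes of the inflammatory and NF-kB lists at that size had medians of 5.48 and 3.42, and 20 were at least 2-fold up in RAW. Only genes with 10 counts in RAW and in BMDM enter. That left out 10 of 32 tested inflammatory genes, 5 of the 32 having no RAW count in either state, and 7 of 66 interferon-stimulated genes. The filter thus bears on the RAW medians and counts of the groups. The BMDM libraries enter both quantities, so these medians are a description of where the called genes lie, and the groups were not tested against each other.

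Of the genes that rose more than 2-fold in BMDM, 352 had a response that was lower in RAW by more than 2-fold, 421 did not pass that test and 0 were higher. The 352 had a median response of 2.68 in BMDM and 0.38 in RAW. Of the genes that fell more than 2-fold in BMDM, 95 had a response that was higher in RAW by more than 2-fold and 326 did not pass. The 95 had a median of −2.09 in BMDM and −0.18 in RAW.

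Interferon-stimulated genes had lower responses in RAW in every member with 10 counts. These genes encode antiviral proteins, GTPases and regulators that interferon switches on. All 66 genes of the list were tested and 59 had at least 10 RAW counts. The response was lower in RAW for 59 of the 59 (14.8% over all genes with 10 counts). The RAW ratio lay below that of both BMDM replicates in 59, and in 4527 of all 10494 genes with 10 counts. By more than 2-fold it was lower for 58, the other being Bst2 (−1.06), picked out after its value was seen. Their median response was 4.16 in BMDM and 0.80 in RAW, with a median difference of −3.25, beside 0.00 over all tested genes with 10 counts. The 59 calls of a lower response held with library sizes in place of TMM and in DESeq2, and 55 were lower at a coefficient of variation of 20%.

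Rsad2 encodes viperin, an antiviral enzyme, and lies on chromosome 12 (26442753 to 26456452). It stood at 24.3 and 28.4 CPM in BMDM at rest and at 11166 and 10374 CPM after LPS. In RAW it went from 15.7 to 37.9 CPM, a ratio of 2.41 (1.79 to 3.29). RAW was below BMDM by −0.76 on the log2 scale at rest (adjusted p = 0.00236) and by −8.15 after LPS (adjusted p = 9.96e-33). The response difference was −7.39 ± 0.386 (SE; adjusted p = 2.99e-15). Its neighbour Cmpk2 (26469204 to 26479835), a mitochondrial nucleotide kinase, had a difference of −7.26 ± 0.591 (adjusted p = 5.41e-11).

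Ifit1 (chromosome 19, 34640871 to 34650009) encodes a protein that binds foreign RNA ends, and its promoter is printed above with 2 ISRE matches. It rose from 4.48 and 6.06 CPM to 2884 and 2702 CPM in BMDM. In RAW it went from 4.19 to 29.7 CPM, and the difference was −6.20 ± 0.666 (adjusted p = 1.40e-08). Ifit2, in the same cluster, had a difference of −6.86 ± 0.359 (adjusted p = 3.19e-15). Isg15 (chromosome 4, 156199424 to 156200818), a ubiquitin-like protein, was at 4.78 and 5.04 CPM in BMDM and 4.71 CPM in RAW at rest. After LPS it reached 581 and 579 CPM in BMDM and 29.7 CPM in RAW, a difference of −4.22 ± 0.483 (adjusted p = 4.76e-08). For Ifit1 and Isg15 no difference in level was called at rest (adjusted p = 0.460 and 0.889), and after LPS RAW lay below both BMDM libraries.

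Mx1 (−7.14 ± 1.25, adjusted p = 5.04e-05), a GTPase against influenza, had 6 and 15 RAW counts, so its RAW ratio of 2.04 ranged from 0.750 to 6.43. Among guanylate-binding proteins, Gbp2b had a difference of −7.45 ± 0.598 and Gbp3 of −6.76 ± 0.676. Gbp3 had 16 counts in RAW at rest and 17 after LPS, a ratio of 0.869 (0.413 to 1.84), while BMDM went from 4.60 and 4.60 CPM to 456 and 418 CPM. The Gbp genes, the Ifi200 family and the Ifit3 pair have near-identical copies, so the share of reads given to each member is uncertain.

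Ifi213, an Ifi200-family gene, reached a low response by another path. RAW held it at 17.0 CPM before LPS and 22.5 CPM with it. BMDM went from 0.0598 and 0.0484 CPM, 1 count in each library, to 12.2 and 9.88 CPM. RAW was above BMDM in both states, and the difference was −6.96 ± 0.946 (adjusted p = 1.43e-11). Over the 59 genes, RAW was higher than BMDM at rest for 17 and lower for 22, where 30.3% and 29.7% of all genes with 10 counts were so called. After LPS RAW was lower for 57 and higher for 2, against 34.5% and 33.4% of all genes.

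**Figure D2:**
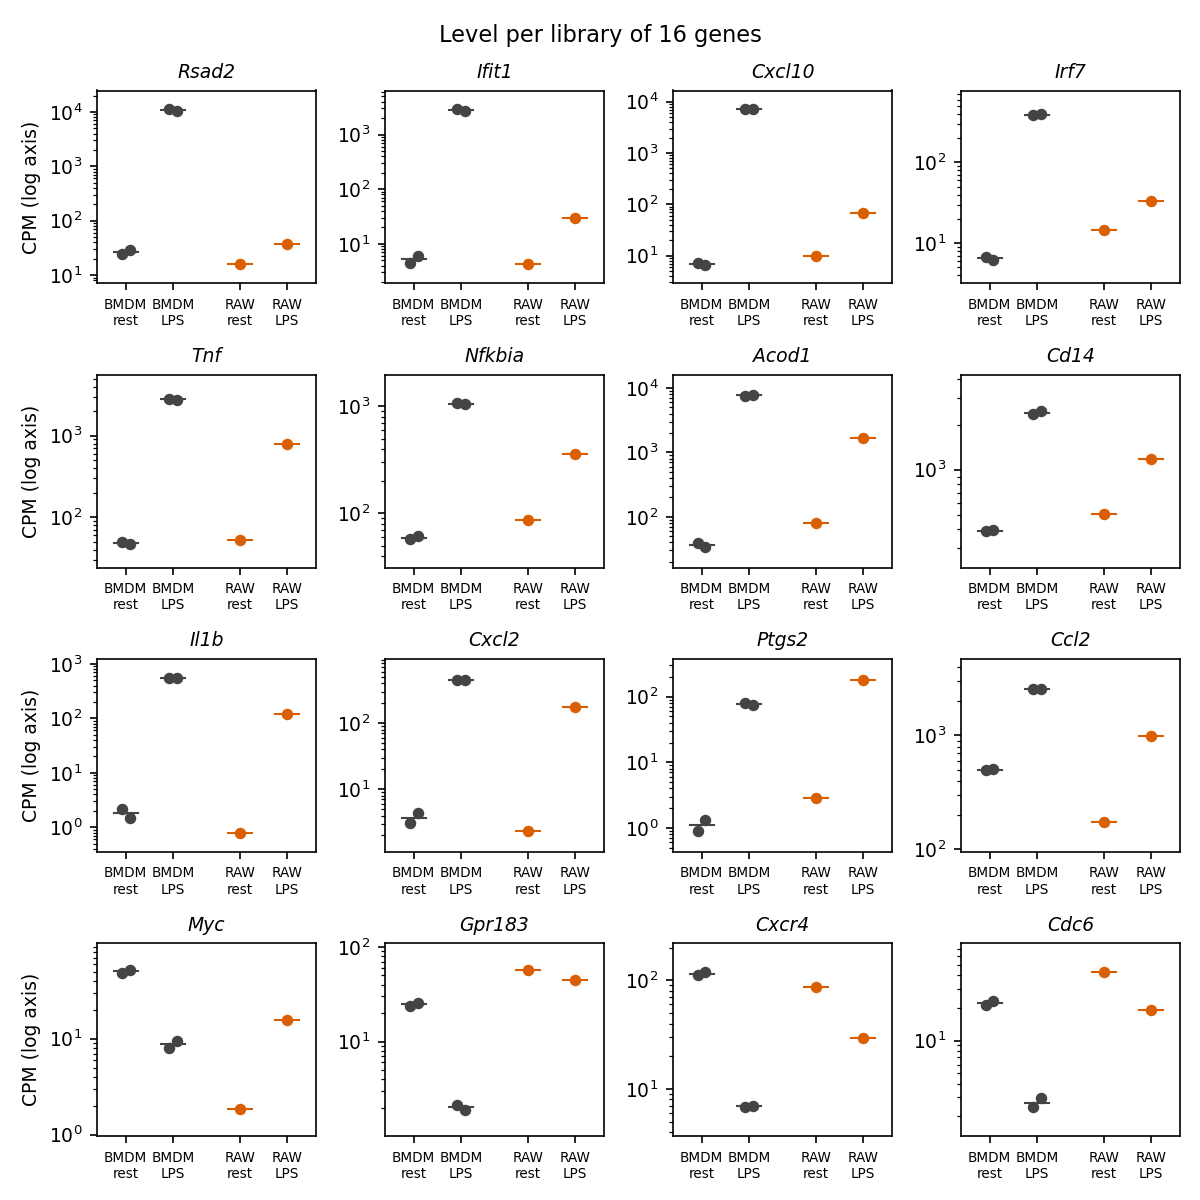
Level (CPM, log axis) of 16 genes in each library, with BMDM in grey and RAW in orange and a bar at each group mean (2 BMDM libraries or 1 RAW library a state). In the first row the cell types are nearer each other at rest than after LPS. In the third row the rise of RAW is close in size to that of BMDM, and in the last row RAW falls less or rises.

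Genes that make and transmit the interferon signal were lower in 17 of 22 (14.8% over all genes with 10 counts), higher in 1 (11.7%) and not called in 4. Their median difference was −0.98. The lower count was 12 at a coefficient of variation of 10% and 6 at 20%. Ifnb1, interferon beta itself, had 0 counts in both BMDM libraries at rest and 18 and 42 after LPS. In RAW it had 0 counts at rest and 1 after LPS, too few for a statement on its response. Irf7 (chromosome 7, 141262706 to 141266481), the interferon-induced factor that amplifies type I interferon, rose from 6.81 and 6.25 CPM to 388 and 395 CPM in BMDM. RAW had more at rest, 14.7 CPM, and 33.6 CPM after LPS, and the difference was −4.71 ± 0.297 (adjusted p = 1.95e-13).

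Irf1 had a response of 5.11 in BMDM and 0.99 in RAW, a difference of −4.12 ± 0.214 (adjusted p = 2.88e-15). Usp18 and Socs3, which damp cytokine receptor signals, had differences of −4.78 ± 0.318 and −3.53 ± 0.491. Socs3 still went from 4.45 to 59.9 CPM in RAW, a ratio of 13.5 (8.26 to 23.5). Irf8 and Ptpn6 were not called, at 0.16 ± 0.134 and −0.12 ± 0.0821.

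The ISRE core was in 51 of the 284 promoters found for genes that rose more than 2-fold in BMDM and responded less in RAW by more than 2-fold, or 18%. It was in 13 of 337 (3.86%) where the difference did not pass that test, in 3.28% of the promoters of tested genes with 10 counts, and in 978 of all 32851 promoters of the table (2.98%). The interferon-stimulated list had it in 22 of 46 (47.8%). The NF-kB consensus was in 46 of the 284 (16.2%), in 58 of the 337 (17.2%), in 10.4% of those of tested genes with 10 counts and in 7.25% of all promoters. These shares are descriptions with no test, and a match is not a bound site.

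Inflammatory cytokines and chemokines were split. Of 32 tested genes of this list, 22 had 10 RAW counts: 11 were lower in RAW (5 at a coefficient of variation of 20%), 1 was higher and 10 were not called. Over all genes with 10 counts 14.8% were lower and 11.7% higher. The median response of the 22 was 4.58 in BMDM and 3.06 in RAW. Their median difference was −0.87, or −0.97 with the 3 genes that had a group at 0 counts set to 3 counts there. Over all 32 tested genes the median fitted difference was −1.66, with 5 of the 32 at 0 counts in RAW in both states. In RAW 20 of the 22 ratios were at least 2-fold up, where 3.14% of all genes with 10 counts were. A gene near 0 at rest passes the filter on counts only through its RAW level after LPS. The 20 of 22 is therefore partly set by the filter and is not a share of the whole list.

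Ccl5 and Cxcl10, chemokines for T cells that interferon also induces, had the most negative differences among its members with 10 counts. Ccl5 (chromosome 11, 83525778 to 83530518) rose from 1.43 and 1.74 CPM to 1438 and 1437 CPM in BMDM, and in RAW it was 3.14 and 13.9 CPM. Its difference, −7.65 ± 0.732 (adjusted p = 1.45e-09), was the most negative of the genes past the 2-fold test with 10 counts. Cxcl10 (chromosome 5, 92346638 to 92348889) rose from 7.23 and 6.54 CPM to 7286 and 7140 CPM. In RAW it went from 9.94 to 69.1 CPM, a ratio of 6.95 (4.96 to 10.0) and a difference of −7.24 ± 0.412 (adjusted p = 1.96e-14). For neither gene was a difference in level called at rest (adjusted p = 0.0800 and 0.0775).

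Tnf, the cytokine released first by activated macrophages (chromosome 17, 35199381 to 35202007), was at 50.0 and 47.6 CPM in BMDM at rest and 52.1 CPM in RAW. After LPS it was 2845 and 2719 CPM in BMDM and 796 CPM in RAW, a RAW ratio of 15.3 (13.3 to 17.7). The difference was −1.90 ± 0.138 (adjusted p = 4.46e-12). Il1a had a difference of −3.84 ± 0.539 (adjusted p = 1.76e-06).

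Other members had no difference past the threshold, which does not show that they acted alike. Il1b (chromosome 2, 129364570 to 129371139), the inflammasome's cytokine, went from 2.15 and 1.45 CPM to 555 and 553 CPM in BMDM. In RAW it went from 0.785 CPM, 3 counts, to 118 CPM, a ratio of 150.2 (51.1 to 731), and the difference was −1.07 ± 0.944 (adjusted p = 0.494). Cxcl2 (chromosome 5, 90903899 to 90905909), a neutrophil chemokine, went from 3.05 and 4.31 CPM to 449 and 446 CPM in BMDM. RAW went from 2.35 to 175 CPM, a ratio of 74.5 (39.1 to 164), with a difference of −0.68 ± 0.541 (adjusted p = 0.435). After LPS both genes stayed below BMDM in RAW, by −2.23 and −1.35 on the log2 scale (adjusted p = 1.99e-22 and 1.45e-17).

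The monocyte chemokines Ccl2 and Ccl7, neighbours on chromosome 11, had differences near 0. Ccl2 rose from 496 and 508 CPM to 2539 and 2568 CPM in BMDM, and RAW had 174 and 987 CPM, a difference of 0.16 ± 0.0799 (adjusted p = 0.180). With library sizes it became 0.42 (adjusted p = 5.97e-05), which is a call. Ccl7 had a difference of 0.10 ± 0.280 (adjusted p = 0.886), while its level was lower in RAW by −4.78 at rest and −4.67 after LPS. The level of Ccl7 was thus lower in RAW in both states, with no call on the response.

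Some cytokine genes of the list were at or near 0 in RAW. Il6 had 747 and 1276 counts in the BMDM libraries after LPS (113 and 101 CPM) and 0 in both RAW libraries, which allows up to 0.642 CPM after LPS. Il12b, the p40 subunit of IL-12, had 4023 and 7099 counts in BMDM after LPS and 0 in RAW, with 2 counts in RAW at rest. Cxcl1 had 545 and 935 counts in BMDM after LPS and 0 in RAW in both states. For Csf3, the growth factor of neutrophils, the order was the other way: 6 and 17 counts in BMDM after LPS and 114 in RAW (24.4 CPM), with 0 at rest in both. Csf3 and Cxcl1 were chosen after their values were seen.

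The NF-kB subunits and their feedback regulators were lower in RAW for 25 of 34 (14.8% over all genes with 10 counts), higher for 1 (11.7%) and not called for 8. The median response was 2.72 in BMDM and 1.25 in RAW, and the median difference −1.30. In RAW 20 of the 34 ratios were at least 2-fold up, beside 3.14% over all genes with 10 counts. At a coefficient of variation of 20% 12 were lower.

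Nfkbia encodes the inhibitor that holds NF-kB in the cytoplasm and is itself an NF-kB target, which closes a feedback loop. It rose from 57.8 and 61.1 CPM to 1069 and 1061 CPM in BMDM, and RAW went from 86.1 to 359 CPM. The difference was −2.10 ± 0.113 (adjusted p = 5.65e-15). Tnfaip3 (A20), a ubiquitin-editing brake on the pathway, had a response of 4.27 in BMDM and 2.26 in RAW (SE of the difference 0.183, adjusted p = 6.08e-10), and Nfkbie a difference of −2.91 ± 0.235 (adjusted p = 4.90e-11).

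Icam1, an adhesion molecule under NF-kB control, went from 57.7 and 58.7 to 2789 and 2860 CPM in BMDM. RAW went from 112 to 421 CPM, a difference of −3.69 ± 0.109 (adjusted p = 6.04e-21). Zc3h12a (regnase-1), an RNase that degrades cytokine messages, had a response of 2.68 in BMDM and 2.47 in RAW, a difference of −0.19 ± 0.231 (adjusted p = 0.644). The phosphatase gene Dusp1 was also not called, at −0.08 ± 0.310.

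**Figure D3:**
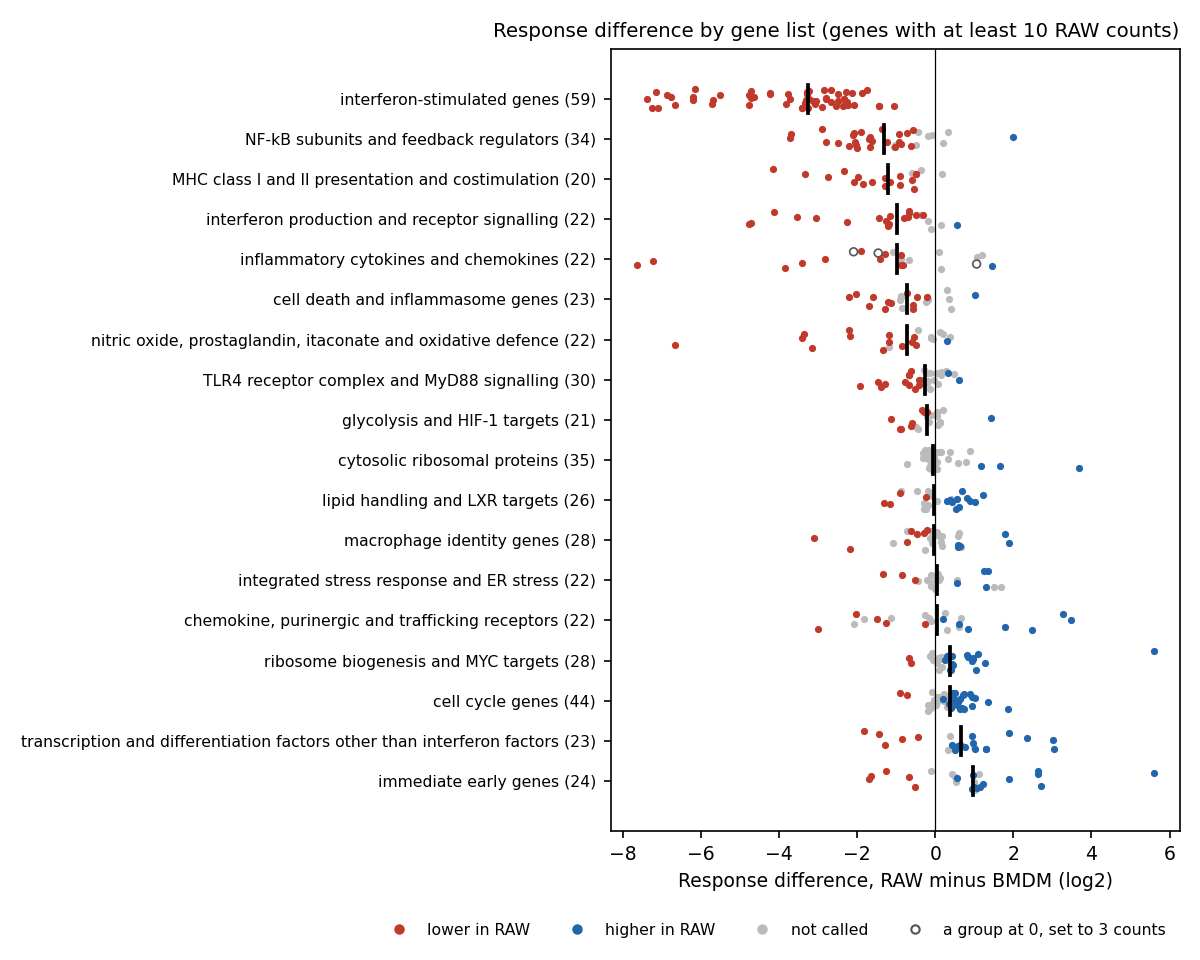
Response difference (RAW minus BMDM, log2) of each gene with at least 10 RAW counts in 18 gene lists, one row a list with its number of genes. Red and blue points were called lower and higher at an adjusted p under 0.05, grey points were not called, hollow points are genes with a group at 0 counts that was set to 3 counts, and black bars are medians. The interferon-stimulated genes lie wholly left of 0, with a median of −3.25, and the immediate early genes have the highest median.

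Genes of the LPS receptor complex and the MyD88 arm were called lower for 13 of 30 (14.8% over all genes with 10 counts) and higher for 2 (11.7%), with 15 not called. That split did not hold: with library sizes it was 7 lower and 7 higher, and at a coefficient of variation of 10% 5 lower and 0 higher, at 20% 1 lower. The median difference was −0.26, and 0.01 with library sizes. Tlr4 itself, the receptor, was at 103 and 101 CPM in BMDM and 96.0 CPM in RAW at rest, and at 75.4, 71.9 and 59.3 CPM after LPS. Its difference was −0.22 ± 0.128 (adjusted p = 0.264). Cd14, the co-receptor that hands LPS on, was at 391 and 395 CPM in BMDM at rest and 507 CPM in RAW. After LPS it was at 2354 and 2448 CPM against 1172 CPM, a difference of −1.40 ± 0.0686 (adjusted p = 7.22e-16). RAW was therefore above BMDM for Cd14 at rest and below it after LPS. At a coefficient of variation of 20% the call of Cd14 ended (adjusted p = 0.132), as did that of Myd88 (0.113).

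Myd88 had a difference of −1.47 ± 0.127 (adjusted p = 1.84e-10), and Map3k8, the kinase that feeds ERK, of −1.92 ± 0.342 (adjusted p = 6.39e-05). Ripk1 and Mapk3 were not called, at 0.01 ± 0.139 and −0.03 ± 0.0984.

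The enzymes of nitric oxide, prostaglandin, itaconate and oxidative defence were lower for 13 of 22 (14.8% over all genes with 10 counts). They were higher for 1 (11.7%) and not called for 8, and at a coefficient of variation of 20% 6 were lower. Acod1, which makes the antimicrobial metabolite itaconate, rose from 38.5 and 34.1 CPM to 7647 and 7658 CPM in BMDM. RAW went from 81.4 to 1676 CPM, a ratio of 20.6 (18.4 to 23.1), and the difference was −3.36 ± 0.129 (adjusted p = 2.66e-18). Nos2, the inducible nitric oxide synthase, reached 263 and 237 CPM in BMDM and 2.78 CPM, 13 counts, in RAW. Its difference was −6.67 ± 1.85 (adjusted p = 0.00759).

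Ptgs2 (chromosome 1, 150100031 to 150108227), the inducible cyclooxygenase COX-2, had a response of 6.08 in BMDM and 5.88 in RAW. It went from 0.897 and 1.31 CPM to 80.0 and 75.0 CPM in BMDM and from 2.88 to 180.2 CPM in RAW. The difference was −0.12 ± 0.484 (adjusted p = 0.943), and RAW was higher after LPS by 1.23 (adjusted p = 8.14e-15). Ptges, the next enzyme on the way to prostaglandin E2, had a lower response in RAW, by −3.15 ± 0.548 (adjusted p = 4.62e-05). The consecutive enzymes thus stood apart in their calls, though the gap between the 2 genes was not tested.

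Antigen presentation and costimulation genes were lower for 17 of 20 (14.8% over all genes with 10 counts) and higher for 0 (11.7%). Their median difference was −1.22. Counts of lower genes were 12 at a coefficient of variation of 10% and 7 at 20%. Cd40, the receptor for T cell help, rose from 3.95 and 3.49 CPM to 481 and 475 CPM in BMDM and went from 4.45 to 32.3 CPM in RAW (−4.15 ± 0.499, adjusted p = 1.17e-07). Cd274, the checkpoint ligand PD-L1, had a difference of −3.33 ± 0.202 (adjusted p = 8.70e-14). Tap1, the peptide transporter of class I presentation, and Nlrc5, its transactivator, had RAW ratios of 1.24 (0.996 to 1.54) and 1.24 (0.987 to 1.57), and BMDM responses of 3.06 and 2.65. Cd80 was not called, at 0.18 ± 0.293.

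Of the 111 genes with a response higher in RAW by more than 2-fold, 95 were genes that LPS lowered more than 2-fold in BMDM. Immediate early genes encode short-lived factors and phosphatases switched on by MAP kinases. They were higher in RAW for 12 of 24 (11.7% over all genes with 10 counts), lower for 5 (14.8%) and not called for 7. Their median difference was 0.97. At a coefficient of variation of 20% 3 were higher. Dusp6, a brake on ERK, fell from 109 and 108 CPM to 20.4 and 19.5 CPM in BMDM. RAW had 17.5 and 19.9 CPM, near the BMDM level after LPS in both states, and the difference was 2.63 ± 0.243 (adjusted p = 3.79e-10). Fosl2, an AP-1 subunit, had the same difference, 2.63 ± 0.197 (adjusted p = 3.76e-12).

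Myc (chromosome 15, 61985341 to 61990374), the growth-promoting transcription factor, had the most positive difference past the 2-fold test. BMDM fell from 48.1 and 52.2 CPM to 8.01 and 9.41 CPM. RAW went from 1.83 CPM, 7 counts, to 15.8 CPM, 74 counts, a ratio of 8.65 (3.99 to 22.3). The cell types moved in opposite directions and the difference was 5.60 ± 0.564 (adjusted p = 4.33e-12). RAW was below BMDM at rest by −4.77 and above it after LPS by 0.83 on the log2 scale (adjusted p = 5.46e-15 and 0.00104).

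Genes of ribosome biogenesis and other known MYC targets were higher in RAW for 16 of 28, Myc included (11.7% over all genes with 10 counts). They were lower for 2 (14.8%) and not called for 10. The median response was −0.17 in BMDM and 0.15 in RAW, and the median difference 0.37. Ppan, a ribosome assembly factor, had a difference of 1.27 ± 0.141 (adjusted p = 2.70e-08) and Polr1b, a subunit of RNA polymerase I, of 1.04 ± 0.172 (adjusted p = 1.62e-05). RAW held higher levels for 26 of the 28 at rest and 27 after LPS, where 30.3% and 33.4% of all genes with 10 counts had higher levels. With a coefficient of variation of 10% 9 were higher, and with 20% 1, Ppan (adjusted p = 0.261) and Polr1b (0.546) not among them.

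Cell cycle genes fell in BMDM for 41 of the 46 tested, where 31.1% of all tested genes fell. Of the 44 with 10 RAW counts, the response was higher in RAW for 24 (11.7% over all such genes), lower for 2 (14.8%) and not called for 18. Medians of the 44 were −0.67 in BMDM and −0.38 in RAW. RAW held higher levels for 32 of the 44 at rest and 36 after LPS, where 30.3% and 33.4% of all genes with 10 counts had higher levels. The calls on the response were small in size: 6 were higher with a coefficient of variation of 10%, 1 with 20%, and 9 in DESeq2. Cdc6, which loads the replicative helicase, went from 21.5 and 23.1 to 2.42 and 2.93 CPM in BMDM and from 42.9 to 19.3 CPM in RAW (1.86 ± 0.278, adjusted p = 2.29e-06). Ccnd1, cyclin D1, fell from 726 and 747 to 308 and 304 CPM in BMDM and was 458 and 489 CPM in RAW (1.36 ± 0.0720, adjusted p = 3.92e-15). The call of Ccnd1 ended at 20% (adjusted p = 0.158).

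Transcription and differentiation factors outside the interferon system were higher in RAW for 14 of 23 (11.7% over all genes with 10 counts). They were lower for 5 (14.8%) and not called for 4. In DESeq2 6 were higher, and at a coefficient of variation of 10% and 20% 9 and 4. Id1, an inhibitor of helix-loop-helix factors, fell from 41.1 and 47.4 to 4.53 and 4.90 CPM in BMDM and had 42 and 45 counts in RAW, the latter 9.63 CPM. Its difference was 3.03 ± 0.374 (adjusted p = 1.92e-07). Tfap4 had a difference of 3.01 ± 0.555 (adjusted p = 2.82e-05).

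Cebpa, a factor of the myeloid lineage, fell from 90.8 and 87.0 CPM to 19.6 and 17.5 CPM in BMDM and went from 57.0 to 43.7 CPM in RAW. Its difference was 1.90 ± 0.167 (adjusted p = 2.98e-10). In the macrophage identity list as a whole 7 of 28 were lower (14.8% over all genes with 10 counts), 5 higher (11.7%) and 16 not called. These counts were 2 lower and 15 higher with library sizes, and 1 and 2 at a coefficient of variation of 10%. Fcgr1, the high-affinity IgG receptor, which interferon induces, rose from 34.1 and 32.7 to 165 and 157 CPM in BMDM, while RAW had 49.4 and 27.6 CPM (−3.10 ± 0.175, adjusted p = 1.57e-14). Csf1r, the receptor for the growth factor M-CSF, had a small difference of −0.21 ± 0.0655 (adjusted p = 0.0168). That call ended in DESeq2, at a coefficient of variation of 10% and 20%, and without BMDM rest replicate 2, where the value was −0.19. With library sizes the value was 0.05.

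Receptors for chemokines, nucleotides and cell movement were lower for 5 of 22 (14.8% over all genes with 10 counts), higher for 7 (11.7%) and not called for 10. At a coefficient of variation of 20% these were 2 lower and 3 higher. Cxcr4, the receptor for CXCL12, fell from 111 and 119 to 6.80 and 7.04 CPM in BMDM and from 86.9 to 29.3 CPM in RAW, a ratio of 0.338 (0.275 to 0.413). The difference was 2.49 ± 0.202 (adjusted p = 5.01e-11). Gpr183 (EBI2), an oxysterol receptor that guides leukocytes, fell from 23.9 and 25.6 to 2.12 and 1.90 CPM in BMDM, while RAW had 57.6 and 44.7 CPM (3.28 ± 0.275, adjusted p = 2.98e-12). Ccrl2, an atypical receptor that LPS induces, had a response of 5.89 in BMDM and 2.87 in RAW (SE of the difference 0.293, adjusted p = 2.22e-09).

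Whether a response difference lies in the level at rest or after LPS was read from both levels. Of the 358 genes with a response lower in RAW by more than 2-fold, 119 were higher in RAW at rest and lower after LPS, 113 were not called at rest and lower after LPS, and 99 were lower in both. Another 17 were higher in both states, as Ifi213 was, and 10 were higher at rest and not called after LPS. Of the 111 genes with a response higher in RAW, 52 were lower in RAW at rest and higher after LPS, 30 were higher in both and 19 were higher after LPS alone. A further 8 were lower at rest and not called after LPS, as Dusp6 and Gadd45a were, and 2 were lower in both.

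**Figure D4:**
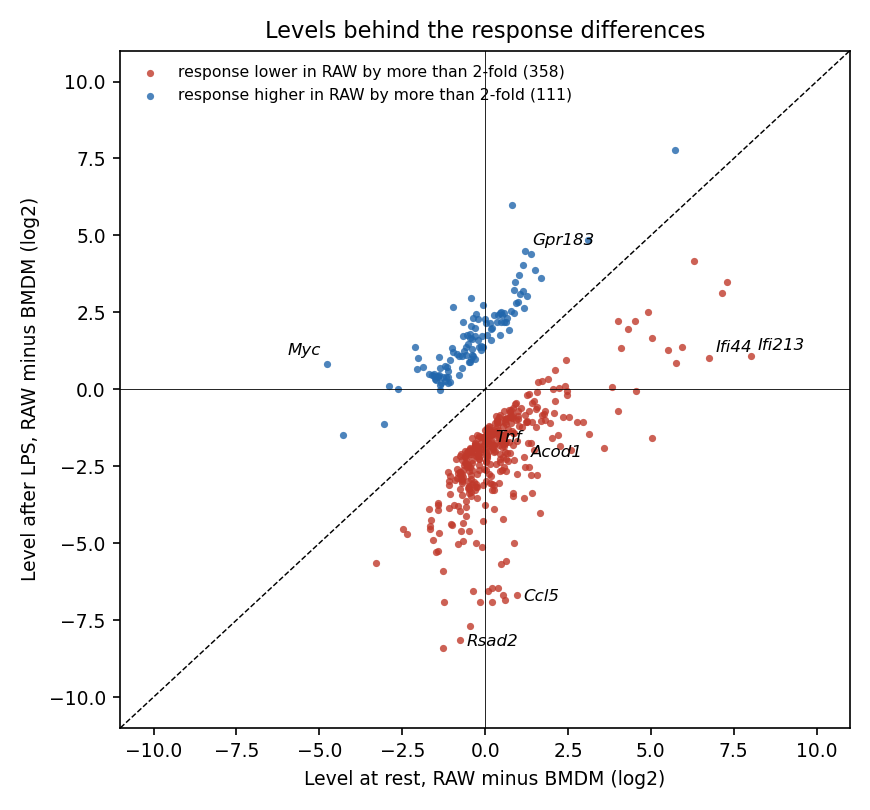
Level in RAW minus level in BMDM (log2) at rest (x axis) and after LPS (y axis) for the 358 genes with a response lower in RAW by more than 2-fold (red) and the 111 with a higher response (blue). The distance from the dashed line is the response difference. Most red points lie below 0 on the y axis, with Rsad2 and Ccl5 near 0 at rest, and Myc lies far left, at −4.77 at rest and 0.83 after LPS.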

How the data were processed

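The table the authors deposited gives unnormalized read counts for each gene. Tools named in the submitters' processing notes are cutadapt, STAR, SAMtools, bedtools and featureCounts, beside the mm10 build, with no version or role. Per the labels' protocols, libraries were made with a stranded kit, and the strand setting of the counting is not given in the sources used here, nor is the LPS dose. Columns were used where the name matched a single sample, and 2 of 10 value columns were not used. Of the gene identifiers 42462 matched a symbol and 884 did not.

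Counts were tested in edgeR 4.0.16 (R 4.3.3): filterByExpr, TMM, and a quasi-likelihood fit with 1 coefficient for each of 6 groups over the 8 libraries. The libraries of another cell type, hMPDM, entered only this fit. Its 2 residual degrees of freedom come from the BMDM pairs. The contrast was the RAW response minus the BMDM response, with Benjamini-Hochberg adjustment and calls under 0.05. A difference of more than 2-fold means that it passed glmTreat against a log2 of 1. The SE is the difference over the square root of F, or the counting error where larger. RAW log2 ratios used a prior count of 2. The script was tested on simulated data. There were no molecular identifiers, so reads are not independent molecules, and intervals and floors cover counting error only.

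Named genes, with at least 10 counts in RAW and in BMDM, are the 10 most negative and 10 most positive differences past the 2-fold test, from each of 18 lists up to 4 called and 2 uncalled genes, 6 genes with opposite directions, and anchor genes whatever their counts. List members under 10 RAW counts are named by counts only. Some of these are not reported here. Members and lists were chosen with earlier results of these data known. Alternatives were the scaling, the filter, DESeq2 1.42.0, a set coefficient of variation, a replicate block, the groups fitted and leaving out each BMDM library. Gene spans were taken from the table (mm10, 1-based), and promoters come from RefSeq.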

Additional observations from a re-analysis of the deposited data

Results flagged for a closer look

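Among 338 genes with a called BMDM response of at least 2-fold and a RAW ratio of at least 2-fold, 12 went in opposite directions, 4 up in BMDM and 8 down. The response difference was called for 10 of the 12 (edgeR quasi-likelihood test, Benjamini-Hochberg adjustment). Of the 6 with the largest differences, 5 are given here, and each stands out because the BMDM response and the RAW ratio had opposite signs. The RAW ratio has no test.

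Myc, with a difference of 5.60, is described above. Gfod1 fell from 2.21 and 2.66 CPM to 1.36 and 1.11 CPM in BMDM and went from 1.83 to 9.42 CPM in RAW, a difference of 3.39 ± 0.660 (adjusted p = 4.31e-05).

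Clmp, a cell adhesion protein, had a difference of −4.32 ± 0.991 (adjusted p = 0.00131), from 7 and 3 counts in RAW, a ratio of 0.351 whose interval, 0.0585 to 1.54, includes no change. Klrg2 had a difference of −4.23 ± 1.11 (adjusted p = 0.00320), with 1 and 2 counts in BMDM at rest and 4 and 6 after LPS, and 16 and 6 counts in RAW. Rps6, a ribosomal protein, had a difference of 3.68 ± 1.13 (adjusted p = 0.0119) on 4 and 13 counts in RAW and at most 0.969 CPM in BMDM. Ribosomal protein genes have near-identical copies elsewhere in the genome, so the reads given to Rps6 are uncertain, and its RAW ratio of 2.66 ranged from 0.821 to 11.2. Its call ended at a coefficient of variation of 20% (adjusted p = 0.0512).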

How the results depend on the processing

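The counts of genes lower, higher, lower by more than 2-fold and higher by more than 2-fold were 1586, 1246, 367 and 111. They became 987, 3052, 271 and 202 with library sizes, 759, 452, 272 and 59 with a coefficient of variation of 10%, 293, 77, 145 and 15 with 20%, and 961, 413, 232 and 27 in DESeq2. Leaving out 1 BMDM library at a time gave 1563 to 1727, 1176 to 1233, 376 to 394 and 100 to 115. A replicate block gave 1576, 1289, 378 and 112. The BMDM numbers were not shown to pair samples (correlation of deviations −0.035). The remaining settings (DESeq2 size factors, no filter, at least 10 RAW counts, BMDM and RAW only) stayed within 1.5 times. With library sizes the sign turned for Cyba (0.21), Cd36 (0.20), Rrm1 (0.25), Rplp1 (0.25), Pdia4 (0.25) and Csf1r (0.05). It also turned for the medians of the TLR4 (0.01), macrophage identity (0.25), lipid (0.25), glycolysis (0.06) and ribosomal protein (0.21) lists. These turns follow the shift of 0.27 in every gene. C1qa was called at −2.18 (adjusted p = 0.0354) and lost the call with no filter (0.0505), library sizes (0.0508), 10% (0.0710) and DESeq2 (0.0752). Of 128 named genes, 29 lost their call at 20%, and at most 4 with an outcome did under any other setting. The 128 include genes that were not called, which had no call to lose, so the share of calls lost is larger than 29 of 128. In DESeq2 112 stayed the same, 4 lost the call, 1 gained it and the rest had no outcome. With at least 10 RAW counts required, 125 stayed the same and the rest had no outcome. RAW has single libraries and the lowest totals, which limits its precision.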

Other observations

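Genes of cell death and the inflammasome were lower in RAW for 12 of 23 (14.8% over all genes with 10 counts), higher for 1 (11.7%) and not called for 10. Their median difference was −0.73. At a coefficient of variation of 10% 7 were lower, and at 20% 3. Casp4 (caspase-11), the sensor of LPS in the cytosol, rose from 20.2 and 21.3 to 235 and 230.4 CPM in BMDM and went from 21.7 to 52.6 CPM in RAW, a difference of −2.20 ± 0.210 (adjusted p = 1.35e-09). Casp1 and the DNA sensor Aim2 had RAW ratios of 1.06 (0.920 to 1.22) and 0.908 (0.761 to 1.08), and differences of −1.69 ± 0.119 and −1.59 ± 0.152. Pycard, the inflammasome adaptor ASC, had 942 and 1157 counts in BMDM at rest and 1 and 0 in RAW. Cdkn1a, the cell cycle inhibitor p21, had a difference of −2.02 ± 0.103 (adjusted p = 1.74e-15).

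Metabolic lists had medians nearer 0, with calls in both directions. Glycolysis and HIF-1 targets were lower for 8 of 21, higher for 1 and not called for 12, but 5 lower and 5 higher with library sizes, and 0 and 0 at a coefficient of variation of 20%. Hk2, the inducible hexokinase, had a difference of −1.12 ± 0.114 (adjusted p = 5.54e-09). Lipid handling and LXR targets were lower for 4 of 26, higher for 11 and not called for 11, and 0 and 0 at 20%. Beside both lists, 14.8% of all genes with 10 counts were lower and 11.7% higher. Scd2, a fatty acid desaturase, fell from 855 and 798 to 285 and 306 CPM in BMDM and was 1348 and 1134 CPM in RAW (1.23 ± 0.0715, adjusted p = 3.35e-14). Abcg1, a cholesterol exporter, was 106 and 61.8 CPM in RAW and rose from 34.1 and 33.1 to 47.5 and 48.3 CPM in BMDM (−1.30 ± 0.130, adjusted p = 3.66e-09).

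Genes of the integrated stress response and ER stress were lower for 3 of 22 (14.8% over all genes with 10 counts), higher for 4 (11.7%) and not called for 15. At a coefficient of variation of 20% 0 were lower and 0 higher. Herpud1, of ER-associated degradation, went from 24.6 to 62.5 CPM in RAW and stayed between 36.0 and 38.6 CPM in BMDM (1.36 ± 0.183, adjusted p = 4.10e-07). Slc7a11, the cystine transporter, had a difference of −1.33 ± 0.125 (adjusted p = 9.84e-10). Cytosolic ribosomal proteins were higher for 3 of 35 (11.7% over all genes with 10 counts) and lower for 0 (14.8%), with 32 not called. At a coefficient of variation of 20% the calls of Aim2, Hk2, Scd2, Abcg1, Herpud1 and Slc7a11 ended (adjusted p = 0.0677, 0.399, 0.255, 0.236, 0.208 and 0.192).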
